A study of Mus musculus with 3 samples.

Results

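A set of 852 H3K9ac summits was present in both the young-labelled and the old-labelled library of mouse haematopoietic stem cells (HSCs) and had no counterpart nearby in the ABC-labelled library. The members were chosen by the deposited summit positions and scores of all 3 libraries. A member is a young-labelled summit on chromosomes 1 to 19 or X with a score of at least 5, an old-labelled summit within 500 bp and no ABC-labelled summit within 5 kb. Of 14315 young-labelled summits past that score, 12675 had the old-labelled partner, and the 852 members are 6.72% of these. The 3 lists together held 187421 summits.

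H3K9ac is acetylation of lysine 9 on histone H3, a mark found at active promoters and enhancers. In CUT&Tag an antibody against the mark directs a transposase, which tags the DNA around it for sequencing. HSCs are the rare bone marrow cells that renew themselves and give rise to all blood lineages. The mark is written by histone acetyltransferases and removed by deacetylases, and its width and height at a promoter tend to follow the activity of the gene.

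All cells were sorted HSCs from the bone marrow of wild-type mice, with 50000 cells in each assay. The young-labelled group came from mice of 2 to 4 months, and the old-labelled and ABC-labelled groups from mice of 18 to 24 months. ABC is not spelled out in the labels, and they do not say whether animals were pooled. Each group had 1 library. No difference has a replicate check, no test between groups was possible, and the intervals on shares (exact 95% Clopper-Pearson) cover counting error only. The young-labelled list held 33248 summits, the old-labelled list 108787 and the ABC-labelled list 45386, and read depth was unknown. The peak names inside the files went against the labels. Peaks in the young-labelled list were named after an old HSC sample, those in the old-labelled list after an old HSC sample with ABC, and those in the ABC-labelled list after another old HSC sample. Which is right was not settled, so every direction below is one between libraries as labelled. As a check of the labelled cell type, 7 of 11 HSC identity genes had a summit within 1 kb of a record end among young-labelled summits, 10 among old-labelled and 6 among ABC-labelled ones. In the same order, markers of other cells gave 5, 8 and 5 of 8 granulocyte genes, 1, 2 and 2 of 5 erythroid genes, 2, 3 and 3 of 4 T and NK cell genes (Cd3d and Nkg7 in each list), 0, 2 and 1 of 5 stromal and endothelial genes, and no B cell gene of 4 in any list. Only the granulocyte genes included one with a member.

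Promoter sequences are shown for 5 of the 6 genes with the strongest members at a gene end, so that the DNA beside the summits can be read. The one left out is Il17rc, whose listed start lies 11766 bp from the member it shares with Creld1. Per3 and Mrpl58 are added as the genes with the next strongest members in the gene lists described further on, and Polr2e, whose member scored above that of Mrpl58, is in none of these lists. They come from RefSeq, assembly GRCm38.p6, run 5′ to 3′ on the strand of the gene, and cover 250 bases before to 50 after the listed start. Capitals mark matches to 13 short motifs that are spelled out with the motif counts further on. The windows are Wbp2 at chr11:116086946-116087245 (minus strand), Camp at chr9:109849407-109849706 (minus strand), Tfip11 at chr5:112326119-112326418 (plus strand), Creld1 at chr6:113483106-113483405 (plus strand), Sfxn1 at chr13:54071595-54071894 (plus strand), Mrpl58 at chr11:115403502-115403801 (plus strand) and Per3 at chr4:151044616-151044915 (minus strand).
Wbp2: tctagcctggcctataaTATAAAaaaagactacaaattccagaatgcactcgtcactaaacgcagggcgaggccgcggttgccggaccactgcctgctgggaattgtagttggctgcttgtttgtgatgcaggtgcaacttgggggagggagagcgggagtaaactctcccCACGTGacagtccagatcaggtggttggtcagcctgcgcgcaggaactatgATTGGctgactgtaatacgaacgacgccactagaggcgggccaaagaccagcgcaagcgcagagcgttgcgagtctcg
Camp: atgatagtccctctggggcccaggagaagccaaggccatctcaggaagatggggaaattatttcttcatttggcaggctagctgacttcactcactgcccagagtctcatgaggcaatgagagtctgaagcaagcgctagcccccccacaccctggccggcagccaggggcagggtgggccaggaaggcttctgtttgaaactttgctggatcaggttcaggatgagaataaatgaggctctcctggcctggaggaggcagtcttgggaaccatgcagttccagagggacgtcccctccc
Tfip11: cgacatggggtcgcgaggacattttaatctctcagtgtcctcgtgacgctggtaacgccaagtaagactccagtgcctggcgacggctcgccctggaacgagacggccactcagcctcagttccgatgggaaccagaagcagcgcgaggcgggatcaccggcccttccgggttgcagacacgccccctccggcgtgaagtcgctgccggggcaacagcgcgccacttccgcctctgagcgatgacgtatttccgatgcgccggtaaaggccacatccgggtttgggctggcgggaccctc
Creld1: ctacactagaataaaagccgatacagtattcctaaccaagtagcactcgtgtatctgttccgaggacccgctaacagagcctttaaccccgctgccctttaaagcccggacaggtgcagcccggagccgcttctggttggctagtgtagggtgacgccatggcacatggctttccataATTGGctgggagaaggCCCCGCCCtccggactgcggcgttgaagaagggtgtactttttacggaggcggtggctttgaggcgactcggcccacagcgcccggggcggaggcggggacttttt
Sfxn1: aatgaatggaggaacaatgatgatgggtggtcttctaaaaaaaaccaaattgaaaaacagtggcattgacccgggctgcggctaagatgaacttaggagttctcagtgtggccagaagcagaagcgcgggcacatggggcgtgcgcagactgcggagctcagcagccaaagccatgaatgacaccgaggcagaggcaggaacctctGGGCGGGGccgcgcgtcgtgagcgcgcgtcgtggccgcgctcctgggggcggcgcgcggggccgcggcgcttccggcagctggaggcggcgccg
Mrpl58: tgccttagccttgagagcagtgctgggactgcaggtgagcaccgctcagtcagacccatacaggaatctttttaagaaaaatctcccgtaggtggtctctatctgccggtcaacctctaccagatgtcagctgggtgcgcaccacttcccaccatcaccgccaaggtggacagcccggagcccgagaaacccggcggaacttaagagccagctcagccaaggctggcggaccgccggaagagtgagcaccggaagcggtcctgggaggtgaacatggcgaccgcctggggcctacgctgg
Per3: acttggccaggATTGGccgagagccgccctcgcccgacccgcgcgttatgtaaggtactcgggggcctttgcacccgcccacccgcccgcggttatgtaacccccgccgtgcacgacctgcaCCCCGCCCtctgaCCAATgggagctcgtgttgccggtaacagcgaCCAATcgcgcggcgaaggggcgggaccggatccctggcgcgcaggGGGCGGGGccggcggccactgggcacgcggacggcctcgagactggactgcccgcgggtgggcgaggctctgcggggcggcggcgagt

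The window of Camp held 3 CpG dinucleotides and none of the motifs. The other windows held between 17 (Mrpl58) and 41 (Per3), against a median of 7 over all 32619 promoters of the table. CpG-rich windows of this kind are typical of broadly used promoters, and CpG-poor ones of genes used in few cell types.

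The shared summits without an ABC-labelled one mostly had lower scores, in both lists that held them, than the summits found in all 3 lists. The score is the −log10 of a q-value from the authors' peak calling and ranks summits only within its own list. Young-labelled scores of the members ran from 5.00 to 153 with a median of 6.0, and 749 members (87.9%) scored under 8. The nearest old-labelled summit had scores from 1.55 to 183 with a median of 7.24. The 11007 summits found in all 3 lists within 500 bp had medians of 9.76 and 24.2. By rank the members were in the upper part of both lists, with a median of 11582 of 33248 in the young-labelled and 24887 of 108787 in the old-labelled list, against 6270 and 6221 for the summits found in all 3. The rule used these scores and lists, so this difference is a description. Only 35 members scored 10 or more in the young-labelled list, and 5 had an old-labelled score of 40 or more. In these bulk libraries, fewer cells carrying the mark and less of it per cell cannot be told apart.

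**Figure D1:**
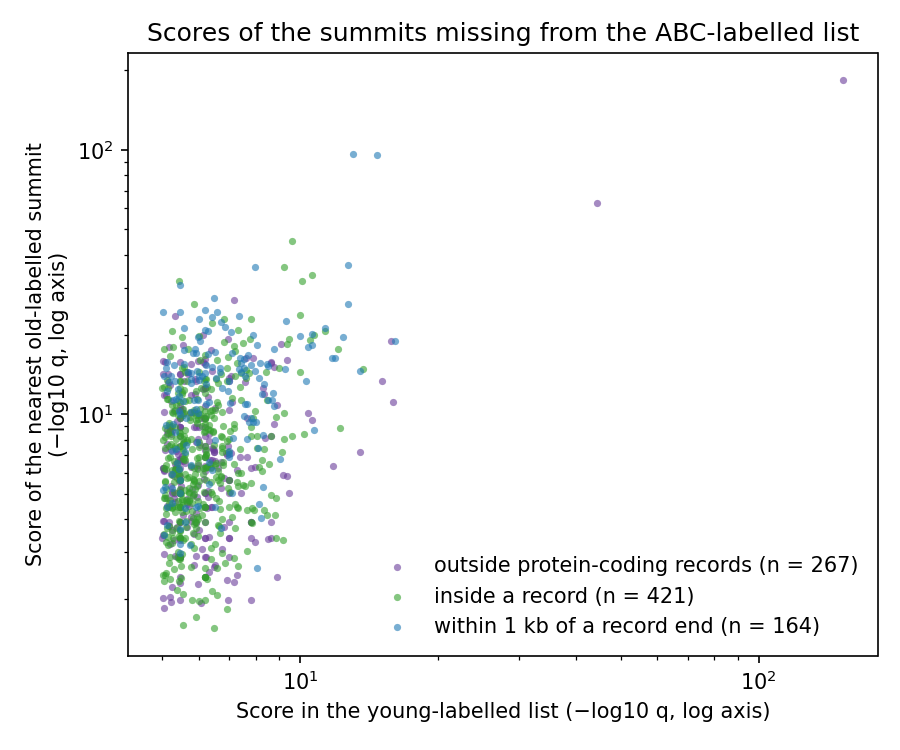
Score of each of the 852 members in the young-labelled list (x axis, −log10 q) against the score of the nearest old-labelled summit (y axis, −log10 q), both on log axes and coloured by position relative to protein-coding gene records. Most points lie near the medians of 6.0 and 7.24, and 5 points lie above an old-labelled score of 40.

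The lower the score, the more often the ABC-labelled summit was missing. Among shared summits with a young-labelled score of 5 to 6, 427 of 2313 (18.5%, interval 16.9 to 20.1) had none within 5 kb. The share was 3.64% at scores of 8 to 10 and 0.206% (6 of 2908) at 15 or more. By old-labelled score it went from 45.9% under 3 to 0.205% at 40 or more. Where an ABC-labelled summit was present beside a young-labelled summit of score 5 to 6, its own score had a median of 5.17, and 1.85% of these summits scored under 2. Across chromosomes the share lay between 4.05% on X (10 of 247) and 8.19% on chromosome 1 (61 of 745).

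Position, which the rule did not use, also differed. Only 164 members (19.2%, interval 16.7 to 22.1) lay within 1 kb of an end of a protein-coding gene record, 421 (49.4%) lay inside a record away from its ends and 267 (31.3%) lay outside all protein-coding records. Of the summits in all 3 lists, 51.2% lay at an end, 33.4% inside and 15.4% outside. Among summits with young-labelled scores under 10 the shares at an end were 18.1% of 817 members (interval 15.5 to 20.9) and 37.5% of 5666 summits of all 3 lists (36.2 to 38.7). The share without an ABC-labelled summit was 2.66% at ends, 9.50% inside and 12.9% outside. Within scores of 5 to 6 these were 11.4% (8.88 to 14.3), 18.9% (16.7 to 21.3) and 24.8% (21.3 to 28.6). Within scores of 7 to 8, inside and outside were close, at 9.60% and 9.52%, while ends were at 5.90%. At scores under 7 the intervals at ends did not overlap those inside or outside records, and at 7 or more they did in some bins. These comparisons match young-labelled scores only. Old-labelled scores differed by place too. Their medians at ends, inside and outside were 31.4, 17.8 and 15.4 for summits of all 3 lists, and 13.1, 6.46 and 6.42 for members. Whether position differed at like old-labelled scores was not tested.

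**Figure D2:**
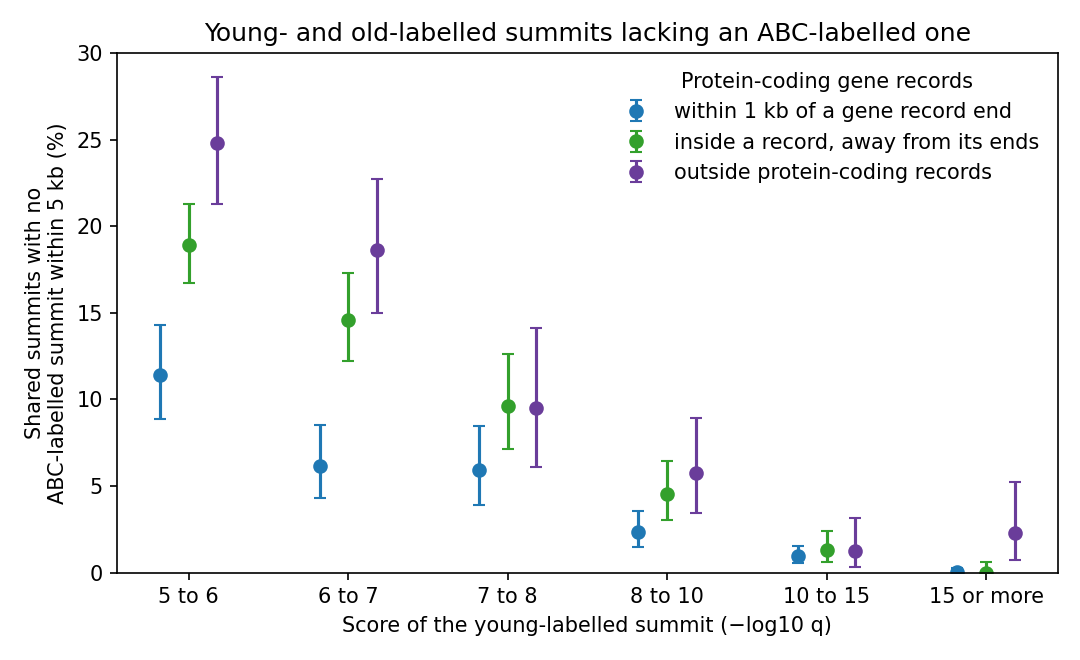
Share of young- and old-labelled shared summits with no ABC-labelled summit within 5 kb (y axis, %), by young-labelled score (x axis, −log10 q) and position. Points are shares and bars exact 95% intervals for counting error. At ends, inside and outside, the share is highest at scores of 5 to 6 (11.4%, 18.9% and 24.8%). At 15 or more it is 0.0483%, 0% and 2.28%. Outside records it is lowest at 10 to 15, at 1.25%, with an interval that overlaps the one at 15 or more.

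The reverse case was much rarer as deposited. Of 11976 young-labelled summits with an ABC-labelled summit within 500 bp, 44 (0.367%) had no old-labelled one within 5 kb. The old-labelled list is the longest, and the gap was smaller in lists of equal length. With every list cut to its 33248 highest-scoring summits, 814 of 11745 shared summits (6.93%) lacked an ABC-labelled one and 336 of 11513 (2.92%, interval 2.62 to 3.24) lacked an old-labelled one. Of the 852 members, 537 were among those 814. The old-labelled list was also read from its own side, at old-labelled scores of at least 5. There 2724 of 19860 summits with a young-labelled partner (13.7%) had no ABC-labelled one, and 5691 of 22976 with an ABC-labelled partner (24.8%) had no young-labelled one.

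Young- and old-labelled summits of the members lay nearly as close together as elsewhere, at a median distance of 63 bp against 54 bp for summits in all 3 lists. The same base was named in both lists for 6.34% of members (interval 4.8 to 8.19) and for 10.3% of summits in all 3 lists (9.74 to 10.9). The gap in the ABC-labelled list was local. Its nearest summit was 5018 to 1351722 bp away, with a median of 12666 bp, and 324 members had one between 5 and 10 kb. From 5 to 50 kb on both sides there were on average 4.01 ABC-labelled summits around a member and 4.12 around a summit of all 3 lists. Old-labelled summits averaged 9.26 and 9.01 in the same windows, and young-labelled ones 3.01 and 3.16. No ABC-labelled summit was found in that window around 8.10% of members and 7.76% of summits of all 3 lists. Another member lay within 10 kb of 20 members, within 50 kb of 85 (9.98%) and within 1000 kb of 571 (67.0%).

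**Figure D3:**
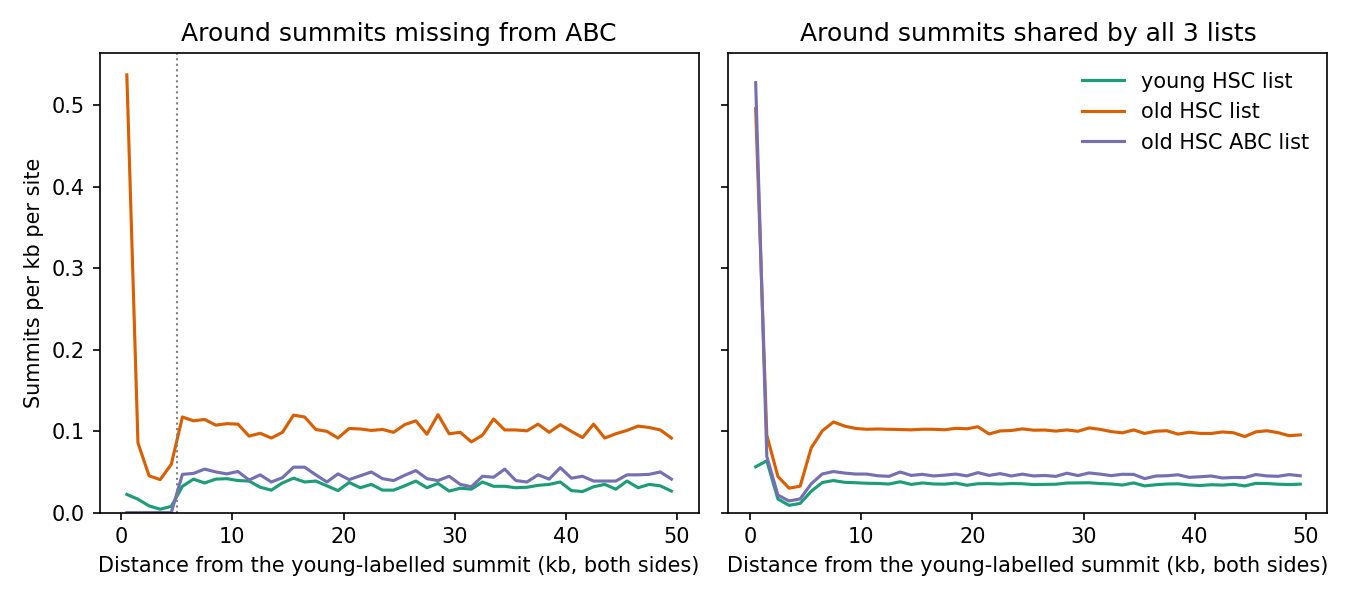
Summits of each list per kb per site (y axis) against distance from the young-labelled summit on both sides (x axis, kb), around members (left) and around summits of all 3 lists (right). The ABC-labelled line is at 0 up to the dotted line at 5 kb on the left, as the rule requires, and beyond it runs at the level seen on the right.

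At gene ends the 164 members lay beside 183 protein-coding genes, 2.66% of the 6880 genes with a young- and old-labelled shared summit at an end. For 81 of the 183 (44.3%, interval 36.9 to 51.8) the ABC-labelled list had no summit at either end or inside the record. A further 71 had one inside only, and 31 had one within 1 kb of an end. Such a gene holds a member and is still marked at an end in the ABC-labelled list. The rule bars ABC-labelled summits within 5 kb of a member, so in short records such as Camp their absence was fixed in advance. The 44.3% is therefore partly set by the rule, and the same share over the 6880 genes is not given.

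Camp stood out by its old-labelled scores. It encodes cathelicidin, an antimicrobial peptide stored in neutrophil granules, and lies on chromosome 9 from 109847377 to 109849456. Its 2 members, at 109848650 and 109849337, had young-labelled scores of 14.7 and 13 and old-labelled scores of 95.8 and 96.7, and the nearest ABC-labelled summits lay 6095 and 6782 bp away. Both summits lie within the short record, 806 and 119 bp after the listed start, downstream of the CpG-poor window printed above. The old-labelled summits ranked 141 and 137 of 108787, and the young-labelled ones 3204 and 4049 of 33248. Thus a site near the top of one list was absent from another. Camp was the only one of 8 granulocyte markers with a member.

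Other granulocyte genes differed in how they stood in the 3 lists. Of the 21 genes in the neutrophil list, 11 had an end summit in all 3, and by rank as a share of list length 7 of these stood lowest in the ABC-labelled list and 4 in the young-labelled one. Ranks from lists of different lengths show no change in level and are given as a description. S100a8, a subunit of the neutrophil protein calprotectin, had ranks of 44 (young-labelled), 13 (old-labelled) and 807 (ABC-labelled), with scores of 65.0, 508 and 23.2. S100a9, the partner subunit, ranked 41, 17 and 2253, with scores of 70.3, 414 and 15.9. Ngp, a neutrophil granule protein, ranked 1453, 45 and 41856, with scores of 20.8, 141 and 2.10. These 3 genes thus stood highest in the old-labelled and lowest in the ABC-labelled list, where Camp had no end summit. Standing highest in the old-labelled list was not particular to this group. It held for 10 of the 11, for 20 of 20 such ferroptosis and iron genes and for 13 of 14 immediate early genes. For sphingolipid genes it was 18 of 22, for HSC surface genes 7 of 10 and for HSC transcription factors 6 of 8. In the same order, these other lists had 7, 4, 12, 3 and 3 genes standing lowest in the ABC-labelled list. Lyz2, the lysozyme of myeloid cells, ranked 2667, 199 and 27910. The order by share of list length was not the same for every gene of this group. Lcn2, which binds bacterial siderophores, stood 13.9%, 3.48% and 9.66% down the lists, lowest in the young-labelled one. Cebpd, a myeloid transcription factor, stood 14.6%, 7.77% and 14.6% down them. Cd177, a neutrophil surface protein, stood highest in the ABC-labelled list (83.1%, 67.6% and 53.8% down the lists), and Mpo, myeloperoxidase, stood higher there than in the young-labelled list (75.5%, 14.4% and 64.6%). Ltf, lactoferrin, had old- and ABC-labelled end summits (6.68 and 3.77) and no young-labelled one, while Retnlg and Elane had one in the old-labelled list only (48.2 and 8.57). These genes are no members and were picked after their values were seen. Their part in the members at Camp was not tested.

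**Figure D4:**
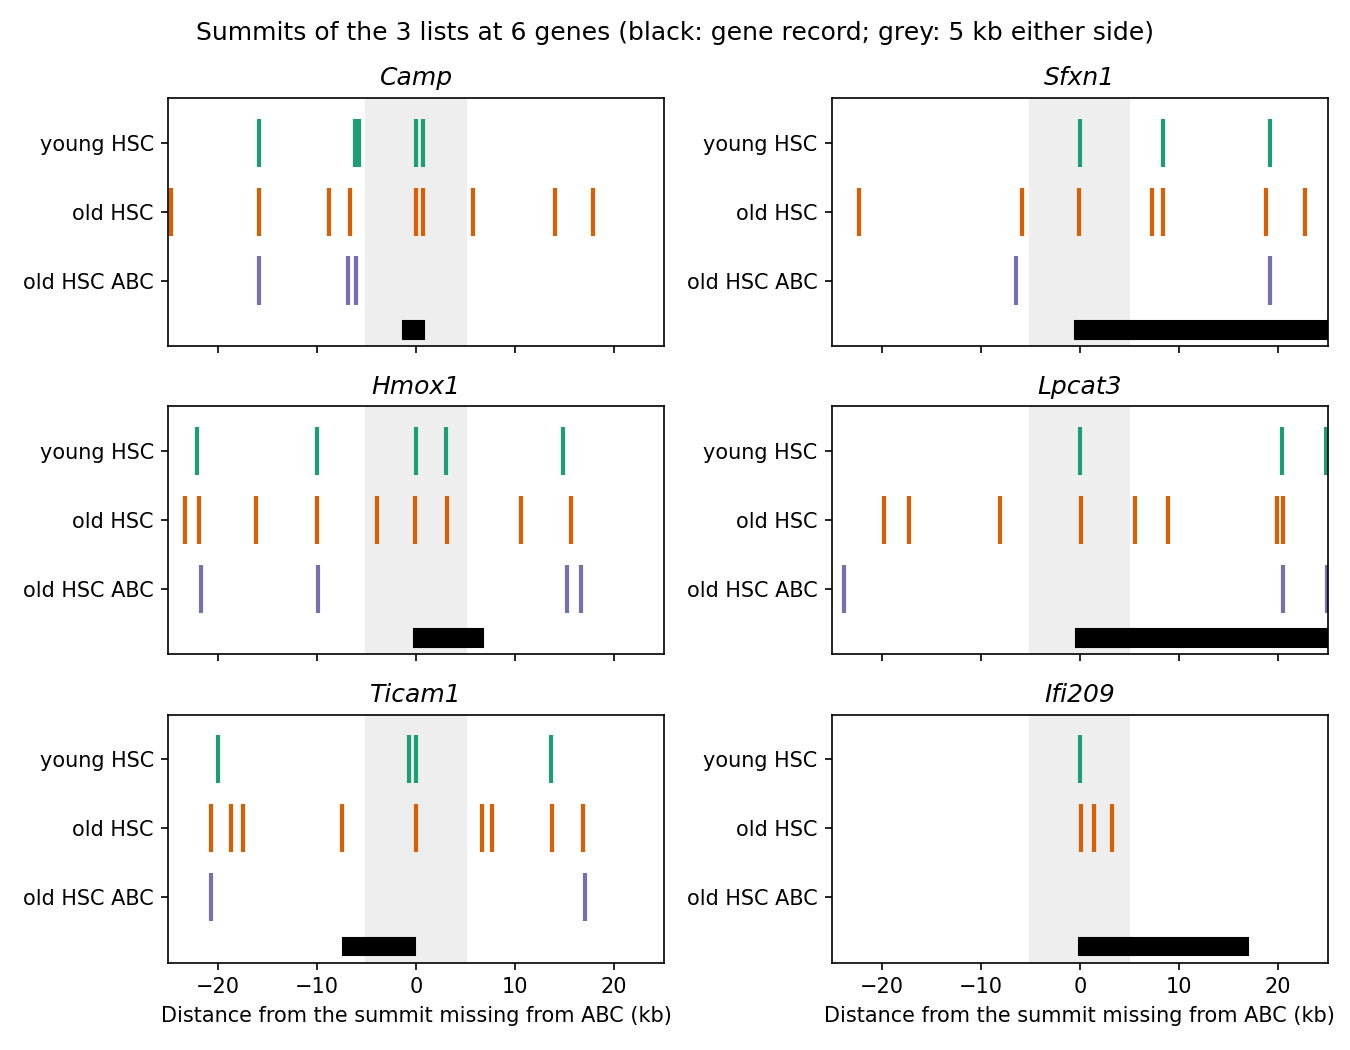
Summits of the 3 lists (ticks, 1 row per list) around the member at 6 genes, by distance from it (x axis, kb). The black bar is the gene record and the grey band 5 kb on either side, which by the rule holds no ABC-labelled tick. At Camp, ABC-labelled ticks lie 6095 bp and further away, and at Ifi209 none lies within the window drawn, the nearest being 31880 bp away.

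The highest young-labelled score of a member at a gene end was at Wbp2, which encodes a WW domain-binding transcription coactivator. The member lies on chromosome 11 at 116087407, 412 bp before its listed start. It scored 16.1 in the young-labelled and 18.9 in the old-labelled list, and the nearest ABC-labelled summit was 6883 bp away, although another lay 1718 bp from an end of the record. Wbp2 was thus without an ABC-labelled summit at its start but not in its surroundings. Tfip11, a splicing factor gene, had a member 235 bp after its start with scores of 13.5 and 14.6, and the nearest ABC-labelled summit lay 16803 bp away. Creld1, which encodes a membrane protein with EGF-like repeats, and Il17rc, a subunit gene of the receptor of the cytokine interleukin 17, shared a member with scores of 12.7 and 26.2 and a distance of 6718 bp. It lies 135 bp before the start of Creld1 and at the far end of the Il17rc record, 11766 bp from the listed start of Il17rc.

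Sfxn1, the gene of a mitochondrial serine transporter, was the only other gene of the strongest 12 end members with an old-labelled score above 30. Its member at 54072180 on chromosome 13 lay 335 bp after the start, scored 12.7 and 36.8, and was 6485 bp from an ABC-labelled summit. A further member lay inside its record, with scores of 5.73 and 4.73. Polr2e, a subunit shared by the nuclear RNA polymerases, had scores of 12.4 and 19.6, and Mrpl58, a peptide-releasing protein of the mitochondrial ribosome, 11.9 and 16.3. Mrpl58 had an ABC-labelled summit of score 8.81 within 1 kb of the other end of its record. Snx32, Pi4k2a, Klf10 and Anp32b closed the strongest 12, with young-labelled scores of 11.7, 11.3, 10.7 and 10.6 and old-labelled scores of 16.3, 21.2, 8.70 and 18.3. They encode a sorting nexin, a phosphoinositide kinase, a Krüppel-like repressor induced by TGF-beta and a nuclear histone-binding protein. None of the 4 had an ABC-labelled summit within 1 kb of an end.

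Inside gene records, the strongest members lay in Tbl1xr1 (13.7 in the young-labelled list, 14.8 in the old-labelled), Per3 (12.2 and 8.83), Dock4 (12.1 and 17.6), Zbtb17 (11.3 and 20.7), Inafm2 (10.7 and 19.9) and Slc16a13 (10.6 and 33.5). Tbl1xr1 encodes a subunit of the NCoR corepressor complex, Per3 a circadian clock protein, Dock4 an activator of Rac and Zbtb17 a zinc finger partner of Myc. Several were close to a start all the same: the members in Tbl1xr1, Per3 and Inafm2 lay 820, 1106 and 1040 bp after a listed start. Of 411 inside members with listed starts on their chromosome, 28 (6.81%, interval 4.57 to 9.70) had one within 1 kb, against 26.1% (24.6 to 27.5) of inside summits of all 3 lists. The sets were not matched by score. In total 411 genes held a member inside the record and none at an end.

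A total of 25 genes held 2 members each and 569 held 1. Besides Camp, Sfxn1 and Dock4, the strongest of the 25 were Kdm6b, Ago2 and Map3k20. Kdm6b, the gene of a demethylase that removes the repressive H3K27me3 mark, had members with young-labelled scores of 9.20 and 7.44, old-labelled scores of 35.9 and 14.3 and the same ABC-labelled summit 5941 and 5205 bp away. Ago2, whose protein carries microRNAs to their targets, had 1 member at an end (10.6 and 20.1) and 1 inside (5.52 and 14.9), with ABC-labelled summits 21059 and 17169 bp away. Map3k20, a stress kinase gene, had 2 inside (8.23 and 6.37 in the young-labelled list, 6.69 and 9.96 in the old-labelled) and an ABC-labelled end summit of score 10.1. Kdm6b and Ago2 thus lacked ABC-labelled end summits altogether and Map3k20 did not.

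The highest scores of all members were outside protein-coding gene records. A summit on chromosome 13 at 9011798 scored 153 (rank 26) in the young-labelled and 183 (rank 34) in the old-labelled list, 15682 bp from the record of Gtpbp4, and the nearest ABC-labelled summit was 16021 bp away. A summit on chromosome 4 at 28176980 scored 44.4 and 62.8, lay 636086 bp from the nearest coding record, Epha7, and 635906 bp from an ABC-labelled summit. Both lay inside non-coding records, Gm36264 and Gm52725. The next were on chromosome 4 at 89264761 (15.9 and 11.1), on chromosome 11 at 53735806 (15.8 and 18.9) and at 52744144 (15.1 and 13.4), and on chromosome 6 at 30006290 (13.5 and 7.17). The young- and old-labelled summits were at most 1 bp apart at 5 of these 6 sites. No filter for regions of uncertain read placing was applied here, and the placing of reads at these sites was not tested. At scores of 15 or more, 5 of 219 outside summits (2.28%, interval 0.745 to 5.25) were members and 1 of 2072 at ends (0.0483%, 0.00122 to 0.269).

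The 267 outside members lay a median of 20477 bp from the nearest protein-coding record, and 72 lay more than 50 kb from one. Ends of non-coding records were within 1 kb of 33, of which 25 were at long non-coding RNA records, and 54 lay inside such a record. Over all members, 3 were within 1 kb of a microRNA record: one at Mir194-1 and Mir215 (6.68 and 4.39), one at Mir7094-1 (6.21 and 8.25) and one at Mir707 (6.2 and 20.9). The first of these microRNA pairs is known from intestinal epithelium and as a p53 target.

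Gene lists were read for which functions the gene-end members touched. Across 33 lists with 1104 genes, 587 had a young- and old-labelled shared summit at an end, and 21 of these (3.58%) had a member there, beside 2.66% over all genes. A further 21 had a member inside only. The share is near that of all genes, so the lists as a whole do not stand out. In all, 15 lists had a member at an end and 18 had none.

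Immune genes with an end member included sensors, receptors and presenters. Ifnar1, a subunit of the type I interferon receptor (1 of 8 cytokine receptor genes with a shared end summit), scored 6.41 in the young-labelled and 23.3 in the old-labelled list. Ticam1, the TRIF adaptor of Toll-like receptors (1 of 22 in its list), scored 6.48 and 27.5, with both summits at 56276868 on chromosome 17 and the nearest ABC-labelled one 17037 bp away. Ifi209, an interferon-inducible gene of the AIM2-like family (1 of 24), scored 6.21 and 24.8 and had no ABC-labelled summit within 31800 bp of its record ends. The young-labelled summits of these 3 ranked 10578, 10436 and 10976, and the old-labelled ones 6546, 5171 and 6006. Ifnar1 differed in that an ABC-labelled summit of score 3.95 lay at the other end of its record. Antigen presentation genes gave 2 of 16: Nlrc5, the activator of MHC class I genes (7.54 and 14.9), and H2-Ab1, an MHC class II chain (5.58 and 15.5). Tlr1 held a member inside (6.50 and 10.4), 114 bp after a listed start.

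Genes of iron and lipid peroxide handling gave 2 of 19. Lpcat3, which loads polyunsaturated fatty acids into phospholipids and so provides substrates of ferroptosis, scored 5.18 and 13.2. The nearest ABC-labelled summit lay 20467 bp from its member. The record held 4 ABC-labelled summits, none of them within 1 kb of an end. Hmox1, haem oxygenase, which frees iron from haem, scored 6.71 in the young-labelled and 3.72 in the old-labelled list, and the nearest ABC-labelled summit lay 9910 bp from the member. Hmox1 ranked 10084 of 33248 in the young-labelled list and 62227 of 108787 in the old-labelled one. Slc7a11, the cystine importer that feeds glutathione synthesis, had a member inside its record (7.79 and 8.97). The nearest ABC-labelled summit lay 62145 bp away, inside the same record. No gene of 20 in the sphingolipid list had an end member (upper limit 16.8%). There were inside members in Sptlc2 (6.57 and 2.61), which makes the first intermediate of the pathway, in the ceramide synthase gene Cers6 (5.70 and 17.7) and in the sphingomyelinase gene Smpd4 (5.19 and 4.74). These 3 all had ABC-labelled end summits, with scores of 22.4, 6.90 and 10.5.

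Histone, energy and repair genes followed. Replication-dependent histone genes gave 3 of 13 with 2 members: H2ac18 and H3c14 share 1 summit (5.45 and 30.7), and H1f3 had 1 (5.08 and 9.08). Histone genes have near-identical copies, so the placing of reads among them is uncertain. Glycolysis and hypoxia genes gave 2 of 13: Slc16a3, the lactate exporter MCT4 (8.73 and 12), and Pgk1, the glycolytic phosphoglycerate kinase (8.0 and 9.33). Pgk1 had no ABC-labelled summit within 15735 bp of its record, while Slc16a3 had one 584 bp from an end. DNA repair genes gave 2 of 27: Rad51c, a recombination protein (8.50 and 11.3), and Atr, the kinase that senses stalled replication (6.02 and 22.9). Single genes came from other lists: Tsc22d1 of the HSC ageing list (6.33 and 6.61, 1 of 11), the immediate early gene Ier3 (6.67 and 14.4, 1 of 16), the proteasome subunit Psma7 (7.34 and 23.5, 1 of 25), the respiratory chain subunit Ndufa8 (6.41 and 6.16, 1 of 63), Mrpl58 (1 of 58 mitochondrial ribosome genes) and the autophagy receptor Optn (5.24 and 5.27, 1 of 29). Of these, Ndufa8 and Optn also had ABC-labelled end summits, with scores of 24.2 and 6.34, as did Mrpl58. Camp, described above, was 1 of 7 in the neutrophil list.

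No end member was found at 42 cytosolic ribosomal protein genes with shared end summits (upper limit 8.41%), 32 splicing genes (10.9%), 30 folding genes (11.6%), 26 cell cycle genes (13.2%), 22 histone acetylation genes (15.4%), 19 histone and DNA methylation genes (17.6%), 15 genes of the p53 and CDK inhibitor list (21.8%) or 11 HSC transcription factor genes (28.5%). All of these limits lie above 2.66%, so counts of this size cannot set the lists apart from all genes. The remaining lists without one had 9 or fewer genes with a shared end summit. They cover HSC surface proteins, erythroid, megakaryocyte, B cell, T and NK cell and stromal genes, control genes of other tissues, circadian genes and zinc finger genes. Some regulators held members inside their records. Fli1 and Prdm16, transcription factor genes needed for HSC maintenance, had members with scores of 6.34 and 10.3 and of 5.96 and 4.10. Ptprc, the gene of the common leukocyte surface phosphatase, had 1 (7.01 and 5.09), Igf1r, the receptor gene of insulin-like growth factor, 1 (5.75 and 10.2) and the deacetylase gene Hdac4 1 (5.58 and 8.24). The cell cycle genes E2f2 (8.40 and 14.4), E2f3 (5.86 and 26.0) and Mki67 (5.39 and 2.89) also had 1 each. E2f2 had no ABC-labelled summit within 31046 bp of its record ends, whereas Mki67 had 3 at its ends.

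Further inside members lay in Ehmt1, a histone methyltransferase gene (5.85 and 4.99), Fanca, a DNA crosslink repair gene whose member is also at an end of Zfp276 (8.05 and 2.62), Ulk1 and Atg7, which start and elongate autophagosomes (8.56 and 6.46, 5.84 and 3.54), and Zfp568, a KRAB zinc finger gene (5.06 and 7.43). Myh6, a heart muscle myosin gene listed as a control of other tissues, held 1 as well (5.09 and 4.43).

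Starts of transcription were compared where the promoter table lists them. It matched 17274 of 21631 protein-coding genes (79.9%), under 80%, so the values hold for listed genes only. Of 835 members on chromosomes with listed starts, 164 (19.6%, interval 17 to 22.5) lay within 1 kb of a start, against 52.5% of summits of all 3 lists. Of those 164, 110 (67.1%, 59.3 to 74.2) lay downstream of the start, with a median offset of 140 bp. For summits of all 3 lists these were 77.2% (76.1 to 78.3) and 216 bp. The intervals of the downstream shares do not overlap. Scores were not matched in this comparison, and the members mostly had lower ones.

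Promoters of 150 of the 183 genes with an end member were in the table. Their CpG count per 300 bases had a median of 22, against 21 for 5173 genes with an end summit of all 3 lists and 7 over all promoters. The medians of genes with members and of other marked genes thus lay 1 CpG apart. The motifs were searched on both strands. For factors of blood cells the GATA motif was spelled AGATAA, the RUNX motif TGTGGT, the ETS motif CCGGAAGT, the PU.1 motif GAGGAAGT and the IRF motif GAAANNGAA. For factors that respond to signals the AP-1 motif was spelled TGANTCA, the CRE motif TGACGTCA and the E-box CACGTG. For elements common in promoters the motif of SP and KLF factors was spelled GGGCGGGG, the CCAAT box ATTGG, the NRF1 motif GCGCATGC, the YY1 motif AAGATGGC and the core promoter box TATAAA. None of these strings contains another. A match is a string of letters, not a bound site.

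Against genes with end summits of all 3 lists at young-labelled scores of 5 to 10, only the AP-1 string had non-overlapping intervals. Scores were matched only roughly. The genes with members were not held to that range, and old-labelled scores were not matched. Genes that share a member count separately here. The string was in 16 of the 150 promoters (10.7%, interval 6.22 to 16.7), in 4.12% (3.59 to 4.70) of the 5173 and in 7.85% of all 32619 promoters. Set against 1921 genes with an end summit of all 3 lists and a young-labelled score of 5 to 10, it was 10.7% against 4.32% (3.46 to 5.33). The share over all promoters lies inside the interval of the 150 and above those of the genes with end summits of all 3 lists. The ETS string went the other way, at 4.67% (1.90 to 9.38) of the 150, 11.2% (10.3 to 12) of the 5173, 9.79% (8.49 to 11.2) at scores of 5 to 10 and 3.91% of all promoters. That last share also lies inside the interval of the 150. Counted over starts within 1 kb of a member in place of gene ends, AP-1 was in 20 of 163 (12.3%, 7.66 to 18.3) and ETS in 6 (3.68%, 1.36 to 7.84), against 4.52% and 10.2% of 5467 starts near a summit of all 3 lists. For the other 11 motifs the intervals of the genes with end members and of those 1921 genes overlapped, and so did those of ETS. IRF, for example, was at 3.33% (1.09 to 7.61) and 7.91% (6.74 to 9.21). No test was made over the 13 motifs, so these shares are descriptions.

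**Figure D5:**
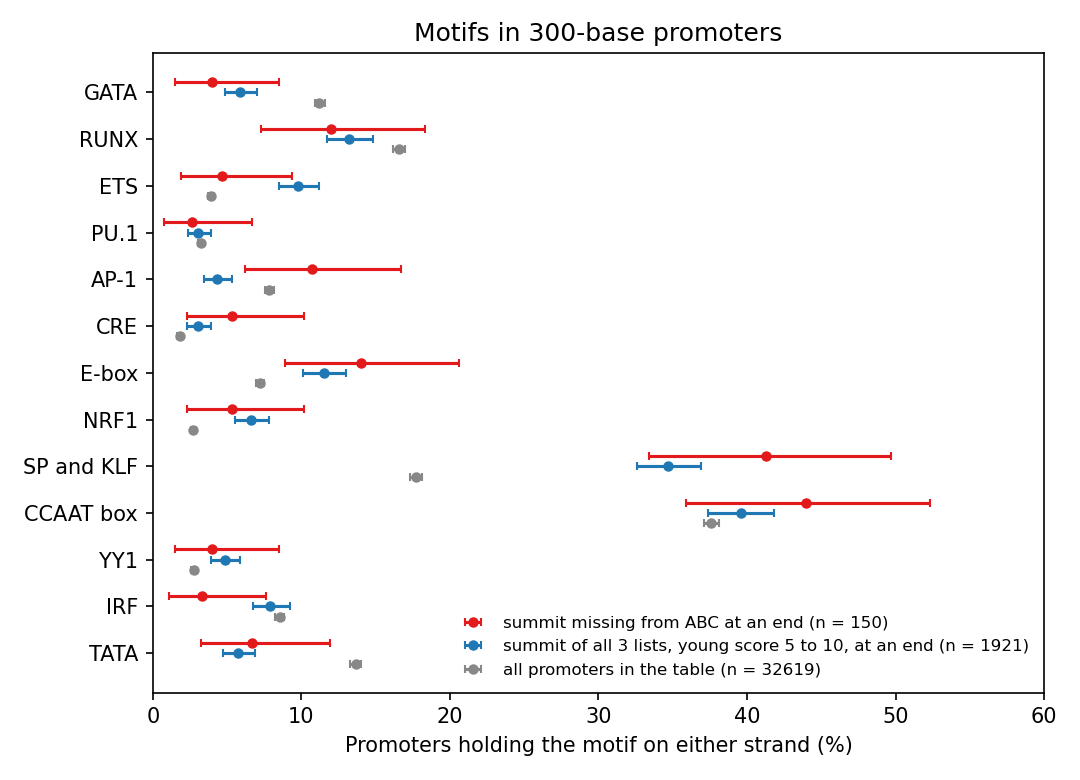
Share of 300-base promoters holding each of 13 motifs on either strand (x axis, %), for 150 genes with a member at an end, 1921 genes with an end summit of all 3 lists at young-labelled scores of 5 to 10, and all 32619 promoters. Points are shares and bars exact 95% intervals. AP-1 is at 10.7% in the first set and 4.32% in the second, and ETS at 4.67% and 9.79%.

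Of the 16 genes with the AP-1 string, 12 had the member within 1 kb of the listed start. The 3 of these with the highest young-labelled scores are printed to show where the string lies, in capitals. They are Smarca2 at chr19:26604910-26605209 (plus strand), Eif2ak3 at chr6:70844265-70844564 (plus strand) and Fam83d at chr2:158767849-158768148 (plus strand), again from RefSeq GRCm38.p6, and they were chosen after the counts were seen.
Smarca2: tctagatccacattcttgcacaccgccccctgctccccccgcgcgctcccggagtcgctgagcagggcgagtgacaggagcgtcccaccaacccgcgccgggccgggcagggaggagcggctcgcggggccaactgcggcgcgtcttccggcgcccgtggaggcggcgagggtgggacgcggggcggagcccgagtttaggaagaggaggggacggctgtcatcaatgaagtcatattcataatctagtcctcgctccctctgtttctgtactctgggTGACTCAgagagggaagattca
Eif2ak3: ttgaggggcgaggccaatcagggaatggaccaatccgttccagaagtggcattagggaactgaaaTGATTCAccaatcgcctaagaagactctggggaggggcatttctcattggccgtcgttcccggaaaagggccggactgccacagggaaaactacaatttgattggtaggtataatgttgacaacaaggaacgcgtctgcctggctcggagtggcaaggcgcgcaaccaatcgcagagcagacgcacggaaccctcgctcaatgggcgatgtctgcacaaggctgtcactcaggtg
Fam83d: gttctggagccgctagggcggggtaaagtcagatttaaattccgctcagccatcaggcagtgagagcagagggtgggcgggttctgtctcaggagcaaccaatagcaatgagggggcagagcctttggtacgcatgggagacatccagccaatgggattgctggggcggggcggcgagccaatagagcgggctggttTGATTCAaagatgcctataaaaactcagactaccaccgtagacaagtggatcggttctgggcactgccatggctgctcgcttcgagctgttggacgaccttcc

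Smarca2, the gene of a SWI/SNF chromatin remodelling ATPase, had scores of 8.17 and 15.6 and its member 256 bp before the start. Its AP-1 string begins 28 bases after the start. Eif2ak3 encodes PERK, the kinase that slows translation under endoplasmic reticulum stress, and scored 7.80 and 15.3 with the member 69 bp before the start and the string 185 bases before it. Fam83d, a mitotic spindle protein gene, scored 7.53 and 16.2 with the member 966 bp after the start. The nearest ABC-labelled summits to these 3 lay 24859, 13246 and 19525 bp away. Smarca2 and Eif2ak3 held 9 and 5 ABC-labelled summits inside their records, and Fam83d held none. Other genes of the 16 were Kdm3a, a histone demethylase gene (7.08 and 17.1), Ifi209, the MHC class II loading gene H2-DMb1 (5.63 and 7.63) and Trem2, a myeloid receptor gene (5.24 and 4.63). The strings lay between 245 bases before and 28 after the start. Of the AP-1 subunit genes themselves, Fos, Fosl2 and Jun had ABC-labelled end summits (3.43, 7.13 and 19.7) and no member. Junb had a young-labelled end summit below the score limit for members (rank 24908) and an old-labelled one of 20.8, with the nearest ABC-labelled summit 7257 bp from an end. Fosb and Jund had old-labelled end summits only (5.84 and 11.1), with ABC-labelled summits 2252 and 14686 bp from an end. Fosl1 had young- and old-labelled end summits (6.17 and 9.97) with an ABC-labelled summit 4959 bp from an end, and no member.

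The summits nearest each limit of the rule are given to show where it cuts, and their values are close by choice. The weakest members scored 5.00, 5.00 and 5.01 and the summits just below 4.99. The widest distances to the old-labelled summit were 499, 497 and 492 bp for members and 503, 525 and 525 bp just outside. The closest ABC-labelled summits to members lay 5018 bp (in Mrtfa), 5025 bp (in Kansl1) and 5031 bp away, and those just outside the rule 4958, 4957 and 4934 bp. A group of 816 shared summits had their nearest ABC-labelled summit more than 500 bp but at most 5 kb away. In it 45.3% lay at gene ends (41.9 to 48.8), between the 19.2% of members and the 51.2% of summits of all 3 lists.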

How the data were processed

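Each of the 3 deposited files, 1 per library, gave single-base summit positions, each with a peak name and a value in the score column. The authors' score was read as the −log10 q-value of MACS2, because each list starts at 1.30, the −log10 of 0.05. The build was mm10 and the tools were BWA, Picard, MACS2 and edgeR, per the submitters' processing notes. Their versions, roles, control library and settings: not given in the sources used here. Scores ranked or filtered summits within a list. The names inside the peak names disagreed with the labels, which were followed. Members were found by nearest distances. The members and the gene lists were chosen with earlier results of these data known.

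Gene records (21631 protein-coding ones on chromosomes 1 to 19 and X) and 32619 promoters came from RefSeq for assembly GRCm38.p6, which has the mm10 coordinates. Records give no exons, so exon and intron positions were not analysed here. Summits on 1 chromosome were left out of the start comparison. Python 3.11.15 with pandas 2.3.3, numpy 2.4.6 and scipy 1.17.1 was used, and the distance search was tested on simulated data.

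Named genes were, by young-labelled score, the 12 highest members at ends, 6 inside and 6 outside protein-coding records, up to 4 genes per list, up to 6 genes with most members, and the 3 summits on each side of each limit. The other settings tried were other scores, distances and gene end windows, equal-length lists, ABC-labelled scores of at least 2 and merging of close summits. The motif comparison at scores of 5 to 10 and the granulocyte ranks were added after the data were seen.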

Additional observations from a re-analysis of the deposited data

Results flagged for a closer look

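Outside chromosomes 1 to 19 and X, which the members do not cover, 34 young-labelled summits scored at least 5 and 31 had an old-labelled summit within 500 bp. Of these, 2 had no ABC-labelled summit within 5 kb, with young-labelled scores of 6.21 and 5.24. They are given because they lie in data that the comparisons did not use.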

How the results depend on the processing

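Of 51 alternative values for 5 results, 30 stayed within the margin (1.5 times for counts, the exact interval for shares) and 21 did not. The minimum score moved everything. At 3 there were 3226 members, 15.9% of shared summits, with 12.2% at ends, 55.0% inside and 421 genes at ends. At 10 there were 35, 0.628% of shared summits, with 45.7% at ends (28.8 to 63.4), 28.6% inside and 16 genes. Asking for 10 kb free of ABC-labelled summits left 528 members (4.17%) and 102 genes, and asking for 2 kb gave a share of 8.02%. With ABC-labelled scores of at least 2 it was 7.26%. Equal-length lists put 26.3% of members at ends and 45.6% inside. Gene ends within 500 bp gave 13.4% and 54.3%, and within 2 kb 25% and 45.4%. Other distances to the old-labelled summit and merging of close summits stayed within the margin. No paired analysis was possible because each group had 1 library. Without replicates or known depth, a missing ABC-labelled summit cannot be told apart from one under the calling threshold.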
